A study of Mus musculus with 2 samples.

Results

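Monocyte genes were read out from messenger RNA fragments in 2 small RNA libraries of mouse spleen cells. The genes are Ace, Cx3cr1, Csf1r, Treml4, Emilin2, Csf3r, Ccr2, Chil3, F13a1 and Fn1, which are 10 of the 11909 protein-coding genes with at least 1 fragment. Spleen cells of C57BL/6J mice were first enriched with CD11c microbeads. They were then stained for Ia, an MHC class II antigen, and a CD11c+ Ia high and a CD11c+ Ia low population, here Ia_high and Ia_low, were sorted to a purity above 95% per the labels. Both are labelled dendritic cells, and neither carries a label of a genetic change or a treatment. The labels give no age, sex or number of mice. No monocyte marker was part of the sort, and there was 1 library per population. No replicate check was possible, no p-value is given, and the intervals below are exact 95% intervals that cover counting error only.

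A tag is a distinct sequence of 20 to 30 nt. A tag belonged to a gene when it was identical, in sense, to a transcript of that gene and of no other protein-coding gene in the GENCODE M21 annotation of GRCm38. There were 343784 such tags in Ia_high and 142394 in Ia_low, and levels are given as tags per 100000 of them. The most frequent number of reads per tag was 4 in Ia_high and 10 in Ia_low, and tags rather than reads were the unit counted. All 10 genes passed the minimum of 10 tags over both libraries together.

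Monocytes are blood phagocytes of the myeloid lineage, and the spleen keeps a reservoir of them. In the mouse they fall into a Ly6C-high type, which leaves the marrow with the help of the chemokine receptor CCR2 and enters inflamed tissue, and a Ly6C-low type, which patrols the vessel wall, needs the nuclear receptor NR4A1 and carries more of the fractalkine receptor CX3CR1. Ly6C-low monocytes bear CD11c and little MHC class II. Ace, Cx3cr1, Csf1r and Treml4 were taken as Ly6C-low genes and Ccr2, Chil3, F13a1 and Fn1 as Ly6C-high genes. Csf1r, which macrophages can also express, was placed among the Ly6C-low genes by choice. Emilin2 and Csf3r, which neutrophils also express, were put in neither class. Chil3, beside which neutrophil markers are also counted below, was kept as Ly6C-high, so the rule was not applied evenly. Class ratios with another assignment are given at the end.

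The most read tags are shown for the genes on which the results turn, to show where in each mRNA the fragments lay and how those of the libraries differed. The most read Ace tag of each library came from different places of the coding sequence, chr11:105979554-105979575 (exon 17) for Ia_low and chr11:105981503-105981523 (exon 18) for Ia_high, both on the plus strand. The first had 0 reads in Ia_high and 62 in Ia_low, and the second 16 and 0.
Ace, most read in Ia_low: gtaccaggagctgcagccactc
Ace, most read in Ia_high: atgtgggcgcagacctggtcc
Emilin2, whose ratio between the libraries was the highest of the 10 genes, had its most read Ia_low tag in coding exon 4 (chr17:71274410-71274437, minus strand), with 0 and 37 reads.
Emilin2, most read in Ia_low: gaatggacggctggacaatgagttcgac
The most read Ia_low tag of Fn1 crossed the junction of exons 10 and 11, 2 coding exons that lie between positions 71638568 and 71640295 of chromosome 1 on the minus strand, and thus came from spliced RNA. It had 0 reads in Ia_high and 21 in Ia_low.
Fn1, most read in Ia_low: cgagaccagtgcatcgttgatg
For Treml4 and F13a1 the most read tags of the libraries began at the same base and differed only by the last base, in capitals here. The Treml4 tags lie in coding exon 2 (from chr17:48264678, plus strand) and the F13a1 tags in the 3′ UTR in exon 15 (chr13:36867663-36867685 for the longer one, minus strand).
Treml4, most read in Ia_high: tagaatggtaggacagagcc
Treml4, most read in Ia_low: tagaatggtaggacagagccT
F13a1, most read in Ia_high: tgactgaaggacagagggcacc
F13a1, most read in Ia_low: tgactgaaggacagagggcaccC
The shorter Treml4 tag had 18 reads in Ia_high and 0 in Ia_low, and the longer one 17 and 45. The shorter F13a1 tag had 13 and 10 reads, and the longer one 0 and 31. The most read tags of Cx3cr1, Ccr2, Chil3 and Csf3r are not shown and had 10 to 19 reads in Ia_high and 25 to 52 in Ia_low.

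The comparison between the libraries asked how much monocyte message each population held. Every one of the 10 genes had more tags per 100000 in Ia_low than in Ia_high, and 9 were at least 2-fold higher with an interval that excluded 1. Over all 7131 genes with 10 tags or more, 6.2% met that rule in this direction and 8.51% met it in the other. By reads, all 10 genes were 2-fold or more higher, as were 11.3% of the 7131, while 19.9% were 2-fold or more lower. The median log2 ratio was 1.53 over the 10 genes and -0.14 over the 7131. The genes were proposed with results of these libraries known, so the count describes them and is no independent evidence. In bulk RNA, fewer cells of a type and less RNA per cell cannot be told apart.

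**Figure D1:**
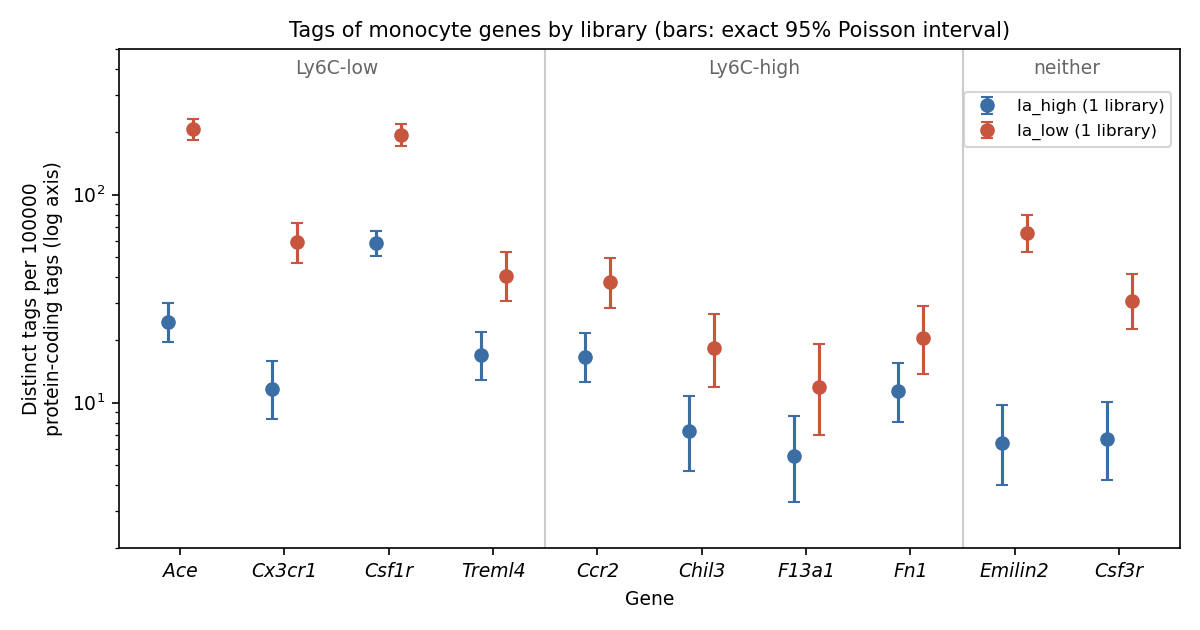
Distinct tags per 100000 protein-coding tags (log axis) for each of the 10 genes in Ia_high and Ia_low, 1 library each, with exact 95% Poisson intervals. The Ia_low point lies above the Ia_high point for every gene, from 11.9 against 5.53 for F13a1 to 206 against 24.4 for Ace.

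Among the Ly6C-low genes, Ace differed most. Ace, which encodes angiotensin-converting enzyme (chromosome 11, 105967945 to 105989964, plus strand), had 84 tags in Ia_high and 294 in Ia_low, or 24.4 and 206 per 100000. The ratio was 8.45 (interval 6.61 to 10.9), and 18 of the 7131 genes had a higher one. By reads, 423 and 3332, it was 9.92. The chemokine receptor gene Cx3cr1 (chromosome 9, 119901616 to 120069879, minus strand) had 40 and 84 tags, or 11.6 and 59.0 per 100000, and its ratio was 5.07 (3.44 to 7.58). Both genes stood well above the 2-fold line.

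Csf1r and Treml4 differed less than Ace did. Csf1r, the receptor of the growth factors CSF1 and IL-34 on which mononuclear phagocytes depend (chromosome 18, 61100598 to 61132149, plus strand), had the most tags of the 10 genes in Ia_high, 200, against 275 in Ia_low. That is 58.2 and 193 per 100000 and a ratio of 3.32 (2.76 to 4.0). Treml4, a receptor of the TREM family that binds dying cells (chromosome 17, 48264295 to 48275360, plus strand), had 58 tags in each library, or 16.9 and 40.7 per 100000, a ratio of 2.41 (1.65 to 3.54). The equal raw counts show how much the Treml4 ratio rests on the scaling. The ratio of Ace was 2.55 times that of Csf1r (1.86 to 3.49), 3.5 times that of Treml4 (2.20 to 5.54) and 1.67 times that of Cx3cr1 (1.03 to 2.66). Csf1r and Treml4 were not told apart (1.38, 0.896 to 2.11), nor were Cx3cr1 and Csf1r (1.53, 0.988 to 2.39).

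The Ly6C-high genes were close to 2-fold higher, with wide intervals. Ccr2, the receptor for CCL2 (chromosome 9, 124101950 to 124113557, plus strand), had 57 tags in Ia_high and 54 in Ia_low, or 16.6 and 37.9 per 100000, a ratio of 2.29 (1.55 to 3.38). Chil3, which encodes the secreted chitinase-like lectin Ym1 (chromosome 3, 106147554 to 106167564, minus strand), had 25 and 26 tags, or 7.27 and 18.3 per 100000, a ratio of 2.51 (1.39 to 4.53). F13a1, which encodes the A subunit of the clotting factor that cross-links fibrin (chromosome 13, 36867178 to 37050244, minus strand), had 19 and 17 tags, a ratio of 2.16 (1.05 to 4.39). Fn1, the gene of the matrix protein fibronectin (chromosome 1, 71585520 to 71653200, minus strand), had 39 and 29 tags, or 11.3 and 20.4 per 100000. Its ratio of 1.80 (1.07 to 2.98) did not reach 2-fold. By reads the ratios were 3.14 for Ccr2, 2.41 for Chil3, 2.68 for F13a1 and 2.42 for Fn1. For none of the 6 pairs of Ly6C-high genes did the interval of the difference exclude equal ratios.

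Emilin2 and Csf3r, the genes in neither class, were well above 2-fold. Emilin2, which encodes an extracellular matrix glycoprotein (chromosome 17, 71252172 to 71311978, minus strand), had 22 tags in Ia_high and 93 in Ia_low, or 6.40 and 65.3 per 100000. Its ratio of 10.2 (6.36 to 17.1) was exceeded by 9 of the 7131 genes and was not told apart from that of Ace (Ace over Emilin2 0.828, 0.466 to 1.43). Csf3r, the receptor for the granulocyte growth factor G-CSF (chromosome 4, 126024550 to 126044440, plus strand), had 23 and 44 tags, or 6.69 and 30.9 per 100000, a ratio of 4.62 (2.73 to 8.01). By reads the ratios were 11.6 for Emilin2 and 5.90 for Csf3r. The Csf3r value depended on which tags were kept, because its transcripts share sequence with many other genes. It was 5.80 without the 8 tags per library that also match a pseudogene, 2.95 with tags kept that also match other protein-coding genes, and 7.70 by reads of tags that match no other gene.

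**Figure D2:**
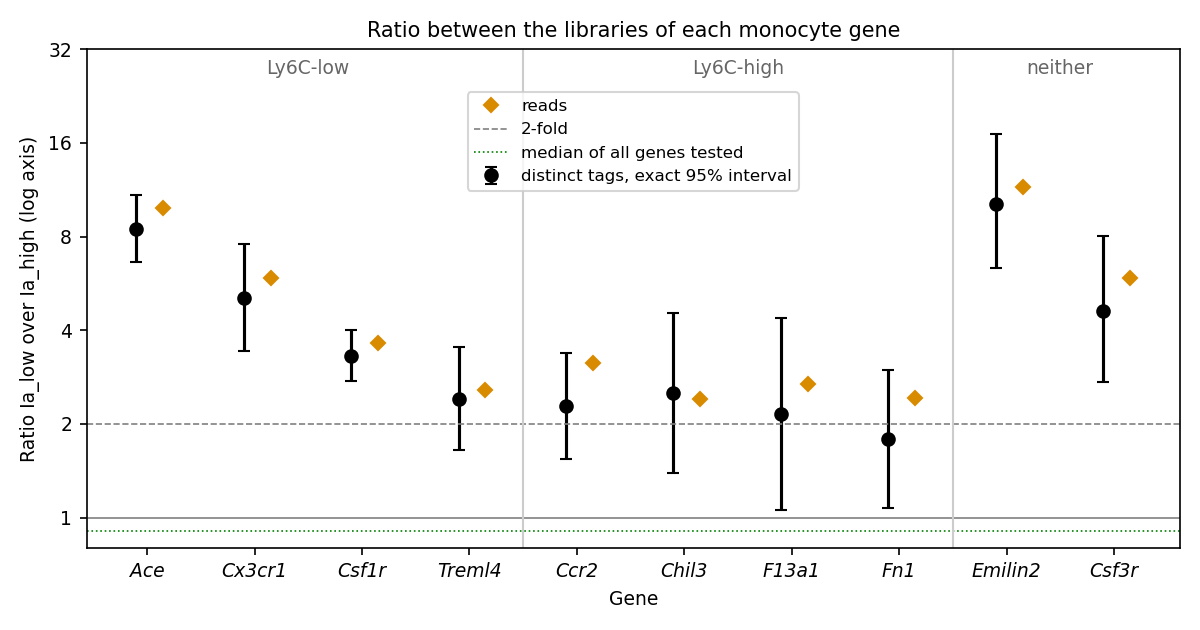
Ratio of Ia_low over Ia_high for each gene (log axis), by distinct tags with exact 95% intervals (black) and by reads (orange), with lines at 1, at 2-fold and at the median of all genes tested. Ace and Emilin2 lie highest at 8.45 and 10.2, and the 4 Ly6C-high genes lie between 1.80 and 2.51.

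As classes, the Ly6C-low genes differed more between the libraries than the Ly6C-high genes. The 4 Ly6C-low genes together had 382 tags in Ia_high and 711 in Ia_low, or 111 and 499 per 100000, a ratio of 4.49 (3.96 to 5.10). The 4 Ly6C-high genes had 140 and 126, or 40.7 and 88.5 per 100000, a ratio of 2.17 (1.69 to 2.78). The first ratio was 2.07 times the second (1.56 to 2.74), and 1.55 times (1.16 to 2.08) without Ace. This comparison does not depend on how the libraries are scaled to each other. Within a library, Ly6C-low genes held 73.2% of the tags of both classes in Ia_high (382 of 522, 69.2% to 76.9%) and 84.9% in Ia_low (711 of 837, 82.3% to 87.3%). Csf1r gave 200 of the 382 tags, and without it the share in Ia_high was 56.5%. The class ratio of the Ly6C-low genes was then 2.66 times that of the Ly6C-high genes (1.96 to 3.62).

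The class difference was not shared by all members. Of the 16 pairs of a Ly6C-low with a Ly6C-high gene, the Ly6C-low gene had the higher ratio in 15, and the interval of the difference excluded 1 in 8. All 4 pairs with Ace were among the 8. Cx3cr1 was told apart from each Ly6C-high gene but Chil3 (2.02, 0.981 to 4.14), and Csf1r only from Fn1 (1.85, 1.07 to 3.21). Treml4 was not told apart from any Ly6C-high gene; against Ccr2, for example, the quotient of the ratios was 1.06 (0.607 to 1.84), and against Chil3, the pair that went the other way, 0.962 (0.472 to 1.96).

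**Figure D3:**
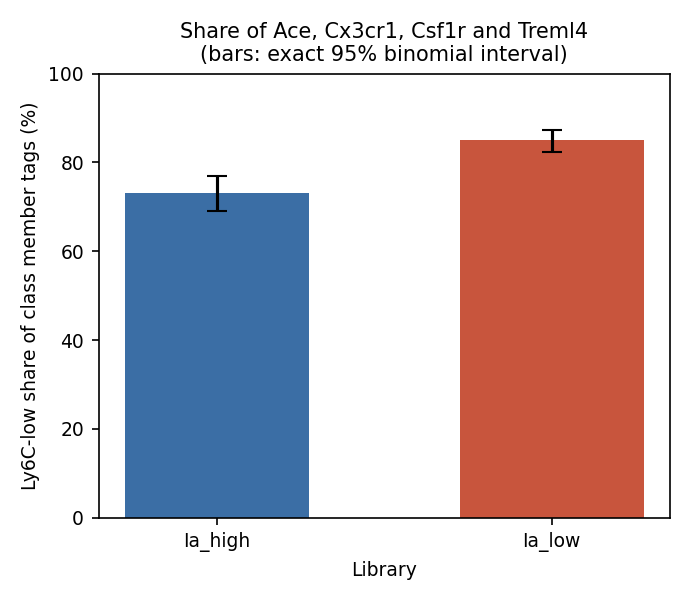
Share of tags from Ace, Cx3cr1, Csf1r and Treml4 among the tags of all 8 Ly6C-low and Ly6C-high genes, in percent, per library, with exact 95% binomial intervals. The intervals around 73.2% in Ia_high and 84.9% in Ia_low do not overlap.

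Levels of different genes were compared per kilobase of the principal transcript. They depend on that choice. The 3870 nt transcript Csf1r-201 held 200 and 273 tags, as many as the 4701 nt Csf1r-202 used here, so Csf1r would be higher with it. Tags shared with other protein-coding genes were left out, which can lower genes such as Csf3r, Fn1 and Chil3. In Ia_low, Ace (41.7 tags per 100000 per kb, 37.0 to 46.7) and Csf1r (40.8, 36.1 to 45.9) led and did not differ beyond counting error. Treml4 followed (23.4, 17.7 to 30.2), then Emilin2 (15.5), Cx3cr1 (13.1), Chil3 (11.9) and Csf3r (8.88), each with an interval that overlapped that of its neighbour. Ccr2 (6.13), F13a1 (3.02) and Fn1 (2.36, 1.57 to 3.42) were lowest. In Ia_high the order began with Csf1r (12.4, 10.7 to 14.2) and Treml4 (9.67, 7.35 to 12.5), whose intervals overlapped, and Ace (4.86, 3.87 to 6.03) and Chil3 (4.73) came next. Emilin2 was near the bottom of the order in Ia_high with 1.48 per kb and just behind Treml4 in Ia_low. Fn1 was the lowest of the 10 in both libraries.

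The tags were spread along the transcripts, more widely for some genes than for others. Of the member tags on the principal transcript, 70.5% of 560 in Ia_high and 73.1% of 958 in Ia_low lay in coding sequence, which makes up 61.7% of the summed length. Tags across an exon junction numbered 63 (11.3%) and 76 (7.93%), and 7 and 16 tags were only on another transcript of the gene. For Ace, tags covered 21.2% of the 4906 nt in Ia_high and 46.5% in Ia_low. Tags of both libraries together formed 61 separate stretches of overlapping tags on Ace, of which 29 held Ia_high tags and 57 held Ia_low tags. Of the Ace tags, 23 in Ia_high and 93 in Ia_low were found only in the long transcript Ace-201, and 1 and 0 only in the shorter transcript Ace-202.

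Other genes showed different patterns along the RNA. F13a1 was the most concentrated. A stretch of its 3′ UTR from 3437 to 3474 nt of the transcript held 11 of 19 tags in Ia_high and 11 of 17 in Ia_low, with 56.0% and 68.5% of its reads, and the printed pair of F13a1 tags comes from there. The F13a1 counts thus rest on 7 and 6 stretches. In Treml4, positions 188 to 222 of the transcript, where the printed pair lies, held 13 and 14 of the 58 tags and 33.1% and 34.3% of the reads. Ccr2 and Cx3cr1 had most of their tags in 3′ UTRs that are themselves long, 2704 of 5728 nt and 2590 of 4493 nt. For Ccr2, 31 of 56 tags in Ia_high and 30 of 50 in Ia_low were in the 3′ UTR, and for Cx3cr1, 23 of 40 and 49 of 84. Coding sequence held 23.2% and 26.0% of the Ccr2 tags, against 19.5% of its length. For Cx3cr1 it held 40.0% and 35.7%, against 23.6% of the length. In Emilin2, 11 of 20 tags in Ia_high (55%, 31.5% to 76.9%) and 65 of 87 in Ia_low (74.7%, 64.3% to 83.4%) were coding. Restricted to coding tags, the Emilin2 ratio was 14.3.

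**Figure D4:**
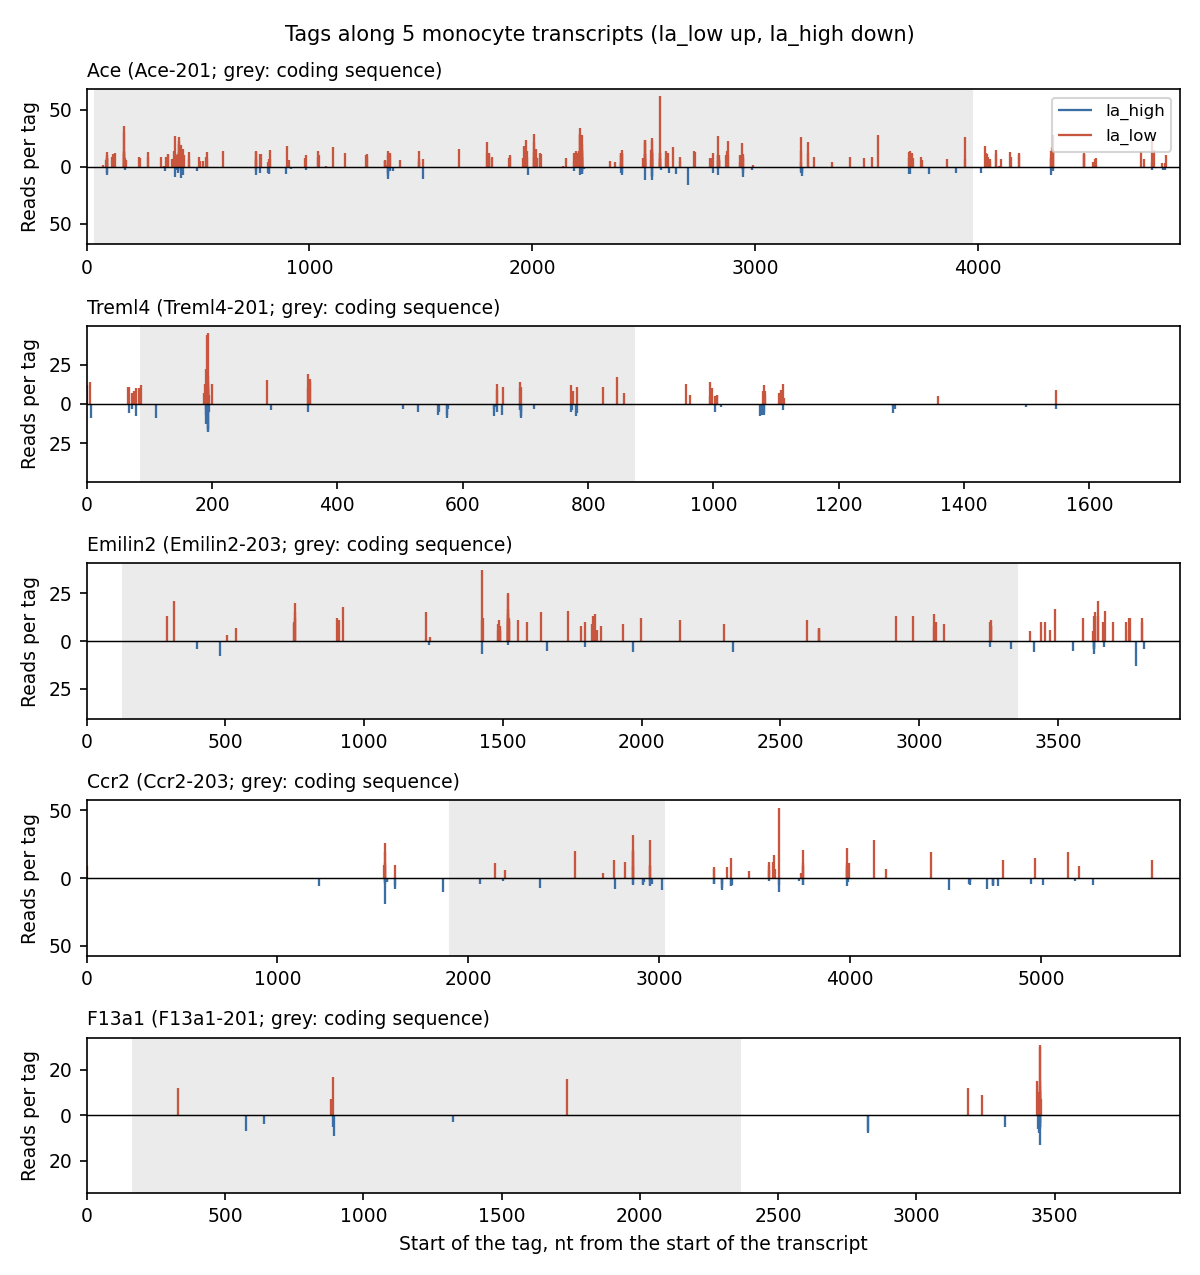
Reads of each tag (vertical axis) against the start of the tag on the principal transcript in nt (horizontal axis) for Ace, Treml4, Emilin2, Ccr2 and F13a1, with Ia_low up, Ia_high down and the coding sequence in grey. Ace tags run along the transcript, while F13a1 tags gather between 3437 and 3474 nt in both libraries.

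Counting stretches of overlapping tags in place of tags kept Emilin2 and Ace highest, with lower values, while Csf3r and Cx3cr1 changed places. The ratio of stretches, scaled like the tags, was 5.15 for Emilin2 (15 and 32), 4.75 for Ace (29 and 57), 3.86 for Csf3r (15 and 24) and 3.32 for Cx3cr1 (24 and 33). It was 2.97 for Csf1r and between 1.89 and 2.90 for Treml4 and the Ly6C-high genes. Few tags were found in both libraries, 119 for the 10 genes together, which is 21.0% of their tags in Ia_high and 12.2% in Ia_low. Over all protein-coding tags these shares were 8.28% and 19.99%. Csf1r had the most shared tags, 60. Among them was a 3′ UTR tag from 3131 to 3151 nt of its transcript that was the most read Csf1r tag of both libraries, with 97 and 146 reads.

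Member tags were close to protein-coding tags as a whole in length and ended more often in C. Tags of 25 to 30 nt made up 49.0% of member tags in Ia_high and 65.0% in Ia_low, against 51.0% and 63.9% of all protein-coding tags. The GC content was 53.4% and 54.8%, against 50.6% and 51.6%. A final C was found on 48.0% and 45.2% of member tags, against 37.2% and 38.5% of all. The median number of reads per member tag was 5 in Ia_high and 11 in Ia_low.

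The wider lists of monocyte genes were chosen with earlier results of these libraries known. Of the 20 further Ly6C-low genes, 19 had 10 tags or more, and 18 of these were higher in Ia_low (median log2 ratio 1.93) and 0 lower, by the counting rule and with no test. By the same rule, 6.2% of all 7131 genes were higher and 8.51% lower, which also applies to the list counts that follow. Those with most tags were Nr4a1 (935 and 453 tags, ratio 1.17, 1.04 to 1.31), the integrin gene Itgal (4.18), the scavenger receptor gene Cd36 (2.69) and the adhesion receptor gene Adgre4 (3.76). Of the 15 further Ly6C-high genes, 14 were measured, 7 were higher and 0 lower (median 1.23). With most tags on this list were the lysozyme gene Lyz2 (153 and 210 tags, ratio 3.31, 2.68 to 4.11), Plac8 (1.79, not called), Klf4 (2.05) and Thbs1, which encodes thrombospondin (2.54). Summed over genes, the lists did not separate, with ratios of 2.47 (2.31 to 2.63) and 2.40 (2.18 to 2.65). Without Nr4a1, which gave most of the Ly6C-low tags in Ia_high and was left out after its values were seen, the first was 3.82 (3.51 to 4.16). Ly6c2, a gene of the Ly6C antigen itself, was looked at for that reason and had only 5 and 2 tags, too few to compare. Tags that it shares with other protein-coding genes were left out, so these counts do not show its level.

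Most ligands and partners of the member proteins had too few tags to compare. Il34, a ligand of CSF1R, the fractalkine gene Cx3cl1, the G-CSF gene Csf3, Ccl12, the angiotensinogen gene Agt, Agtr1a and F13b had 0 tags in both libraries, where 0 tags allow up to 0.873 per 100000 in Ia_high and 2.11 in Ia_low. Of the 17 genes of this list, 5 were measured and none was called by the counting rule. The fibronectin-binding integrin genes Itga4 (614 and 289 tags, ratio 1.14), Itgb1 (1.46) and Itgav (1.96) and the signalling adaptor gene Tyrobp (1.91) had most tags. A further integrin gene of this kind, Itga5, went the other way with few tags (14 and 3, ratio 0.517, 0.0953 to 1.85). Of the transcription factors of monocyte development, 12 of 13 were measured, 6 were higher and 0 lower (median 0.73). Over all 7131 genes, 6.2% were called higher and 8.51% lower. With most tags were Nr4a1, Klf2 (1.09), Klf4 (2.05) and Zeb2 (2.38, 1.86 to 3.04). Irf8, named after its values were seen, went the other way without reaching 2-fold (199 and 49 tags, ratio 0.594, 0.426 to 0.816).

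Markers of the other cells that can express these genes were counted in the same way. The 13 neutrophil markers, of interest beside Csf3r, Emilin2 and Chil3, summed to 28 tags in Ia_high and 16 in Ia_low, 8.14 and 11.2 per 100000, and Ly6g, Camp and Ltf were at 0 in both. For platelets, beside F13a1, 5 of 7 markers (Pf4, Itga2b, Gp9, Gp1bb and Treml1) were at 0 in both libraries, and the sum was 5.53 and 5.62 per 100000. Endothelial markers, beside Ace, summed to 2.33 and 0.702 per 100000 (8 and 1 tags) with 5 of 7 at 0 in both, and fibroblast markers, beside Fn1, to 0 and 1.40 (0 and 2 tags). NK cell markers, beside Cx3cr1, summed to 4.94 and 7.02 per 100000 (17 and 10 tags, ratio 1.42, 0.581 to 3.28). Macrophage markers, beside Csf1r and Fn1, summed to 155 and 82.2 per 100000, with 5 of 12 genes lower in Ia_low and 0 higher. Over all 7131 genes, 8.51% were called lower and 6.2% higher. The part of these cells in the results was not tested.

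The labelled dendritic cells were also checked, beside 8.51% of all 7131 genes called lower in Ia_low and 6.2% called higher. Of the 8 markers of cDC1, the cross-presenting dendritic cells, 7 were measured and all 7 were lower in Ia_low (390 and 70.9 per 100000 in sum). Xcr1, Cadm1 and Tlr3 were at 0 there. Batf3 was also at 0 but had only 5 tags in Ia_high, too few to compare. Wdfy4 (ratio 0.256) gave 97 of the 101 tags of the list in Ia_low. The cDC2 markers summed to 161 and 120 per 100000, with 3 of 5 measured lower, Cd4 (0.021), Irf4 (0.291) and Cd209a (0.256). Sirpa (1.51, 1.21 to 1.87), named after its values were seen, and Clec10a (6 and 6 tags) were not called. The sum rests largely on Sirpa, which gave 226 of the 555 tags in Ia_high and 141 of the 171 in Ia_low. Clec4a4 and Mgl2 were at 0 in Ia_low and had only 5 and 2 tags in Ia_high. Plasmacytoid DC markers summed to 39.6 and 36.5 per 100000 (ratio 0.923, 0.657 to 1.28), with 1 of 4 measured higher and 2 lower. Plasma cell markers summed to 28.5 and 68.1 per 100000, a ratio of 2.39 (1.79 to 3.20), and of 3 measured, 2 were higher, the joining chain gene Jchain (2.37) and the transcription factor gene Prdm1 (6.04), named after their values were seen. B cell markers summed to 21.5 and 6.32 per 100000, T cell markers to 10.2 and 0, and erythroid markers to 2.91 and 0. Among 1208 genes with 100 tags or more, those with a log2 ratio closest to Ace were Emilin2, Rap1gap2 (6.39) and Spn (5.87), and those closest to Ccr2 were Dusp2, Fxyd5 and Rap1b (each 2.29 or 2.30). This likeness rests on 2 libraries.

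Scaling changed the size of every ratio. Protein-coding tags were 29.0% of all tags in Ia_high and 18.8% in Ia_low, and scaled to all tags the ratio was 2.91 for the Ly6C-low and 1.41 for the Ly6C-high class. Ace (5.47), Cx3cr1 (3.28), Csf1r (2.15), Emilin2 (6.61) and Csf3r (2.99) then stayed above 2-fold, and Treml4 (1.56), Ccr2 (1.48), Chil3 (1.63), F13a1 (1.40) and Fn1 (1.16) did not. Chil3 shares sequence with its neighbour Chil4 and with a pseudogene, and by reads of tags that match no other gene its ratio was 1.83.

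**Figure D5:**
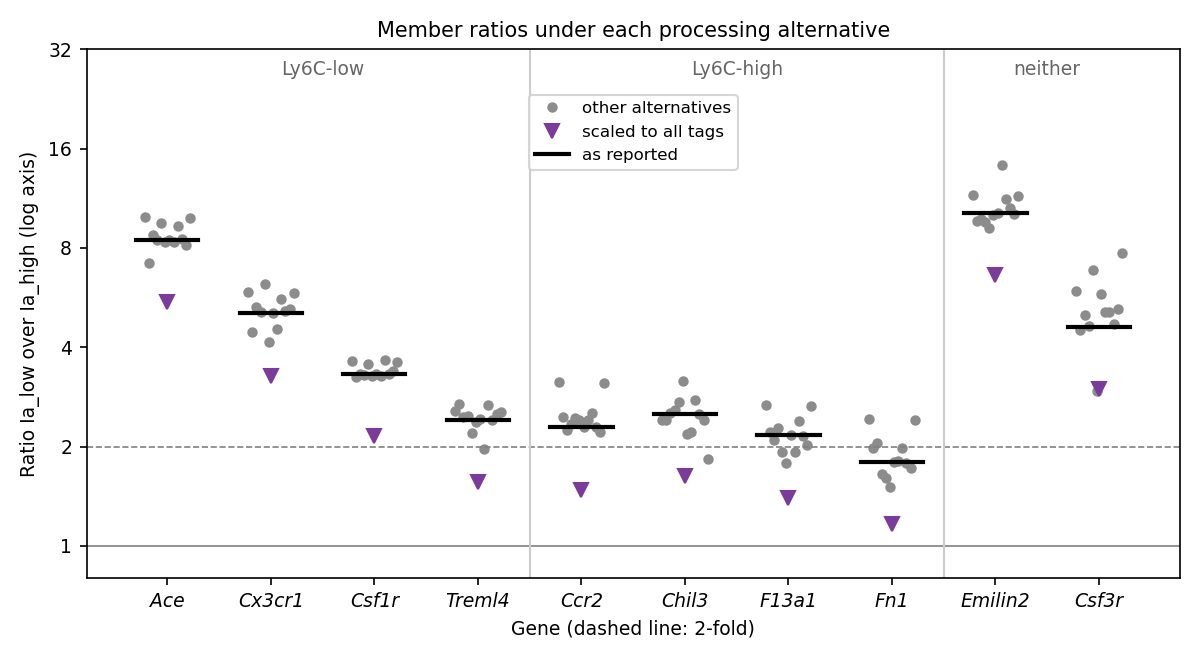
Ratio of Ia_low over Ia_high for each gene (log axis) as reported (black line) and under each processing alternative (grey points), with scaling to all tags as a triangle. Ace, Cx3cr1, Csf1r, Emilin2 and Csf3r stay above the dashed 2-fold line in all 13 alternatives, and all 10 genes stay above 1.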

How the data were processed

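Per the labels' protocols, total RNA of the sorted cells was run on a gel, molecules under 30 bases were taken, and after adaptor ligation and 12 PCR cycles they were read on a Solexa sequencer. Each deposited file pairs a distinct sequence with its unscaled read count. How the authors trimmed and filtered reads is not given in the sources used here. The libraries held 1185709 and 758783 tags with 16388303 and 13739811 reads (Ia_high, Ia_low). Tags were matched without mismatch to GENCODE M21 transcripts (Python 3.11.15, SciPy 1.17.1). With 1 library per group no test was run. A ratio was called at 2-fold or more with an exact (Clopper-Pearson) 95% interval that excluded 1, and 0 tags were set to a floor of 3. The principal transcript was the best APPRIS rank, then the longest coding one. In simulated data of 7131 genes, 49.0% of 100 genes set to 2-fold, 96.0% of 100 set to 4-fold and 1.04% of 6634 left alone were called higher. With 1 library per population, variation between libraries could not be estimated, so these rates are not error rates for a difference between the populations.

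The text names all 10 genes, the most read tag of each gene in each library (a selection is printed), the 4 genes with most tags of each wider list, and the 3 genes closest to Ace and to Ccr2. Some further genes of the lists were named after their values were seen. Members, classes and the 17 lists (163 of 164 genes matched the annotation) were chosen with earlier results of these data known. Reads carry no molecular identifiers, and overlapping tags are not independent. Alternatives covered the unit counted, tag length, uniqueness, transcript part, scaling and class members.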

Additional observations from a re-analysis of the deposited data

Results flagged for a closer look

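Tags outside the main measurement were found for some genes. Antisense tags over Csf3r transcripts numbered 253 in Ia_high and 217 in Ia_low, and every one of them also matched several genes in sense. Over Fn1 there were 46 and 32 antisense tags, of which 3 and 0 had no sense match elsewhere, and over Cx3cr1 there were 8 and 8, of which 0 and 1 had none.

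Tags of 31 nt or more, which were not used above and were not checked against other genes, also matched members. In Ia_high there were 5 for Ace, 5 for Csf1r, 3 for Treml4, 2 for Emilin2, 1 each for F13a1 and Fn1 and 0 for the other genes. In Ia_low there were 95 for Ace, 73 for Csf1r, 21 for Cx3cr1, 22 for Treml4, 20 for Ccr2, 13 for Chil3, 16 for Fn1, 24 for Emilin2, 16 for Csf3r and 2 for F13a1. Such tags were more numerous in the Ia_low library as a whole (49411 and 186623). Per 100000 long tags the Ly6C-low class had 26.3 in Ia_high and 113 in Ia_low, a ratio of 4.30 (2.46 to 8.20), and the Ly6C-high class 4.05 and 27.3, a ratio of 6.75 (1.78 to 57.3) from 2 and 51 tags. The Ly6C-low share was 86.7% of 15 and 80.5% of 262, with intervals that overlap (59.5% to 98.3% and 75.2% to 85.1%), so the class difference seen with shorter tags was not seen in the few long tags.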

How the results depend on the processing

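No paired analysis was possible because each population had 1 library. Of the 15 alternatives that gave both class ratios, 13 could change which class was higher, since the other two only rescale the libraries. In these 13 the Ly6C-low ratio was the higher one, and in all 12 that gave both shares, the Ly6C-low share was higher in Ia_low. Scaled to all tags, the class ratios were 2.91 and 1.41. Leaving out 1 member moved the Ly6C-low ratio to between 3.38 (without Ace) and 5.78 (without Csf1r), its share in Ia_high to between 56.5% (without Csf1r) and 82.2% (without Ccr2), and its share in Ia_low to between 76.8% (without Ace) and 90.8% (without Ccr2). With Emilin2 counted as Ly6C-high and Csf1r in neither class, the ratios were 5.78 and 3.26 and the shares 52.9% and 66.6%. The shares were 78.8% and 89.0% for coding tags and 66.0% and 79.8% with tags kept that match other protein-coding genes. For tags of 25 to 30 nt the share in Ia_high was 68.2%. No member ratio changed direction. F13a1 fell below 2-fold in 4 of 13 alternatives, Chil3 and Treml4 in 2 each and Ccr2 in 1, and Fn1 reached it in 3. Depth limits the Ly6C-high genes most, with 17 to 57 tags each per library. Reads of tags that match no other gene, and the list without Nr4a1, were added after the data were seen.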
